A study of Mus musculus with 6 samples.

Results

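The miR-30 family was examined in the left ventricle of male C57BL/6 mice given vehicle or sunitinib, an inhibitor of several receptor tyrosine kinases that is used against cancer. The family was taken as 10 mature microRNAs (miRNAs, short RNAs that guide repression of messenger RNAs), namely mmu-miR-30a-5p, mmu-miR-30a-3p, mmu-miR-30b-5p, mmu-miR-30b-3p, mmu-miR-30c-5p, mmu-miR-30c-1-3p, mmu-miR-30d-5p, mmu-miR-30d-3p, mmu-miR-30e-5p and mmu-miR-30e-3p, written below without the species prefix. They were selected by name, with earlier results of these data known, and all 10 were among the 1881 mouse miRNAs on the array. Total RNA from 3 control and 3 sunitinib samples (200 ng each) was labelled with Cy3 and hybridised, 1 sample to an array, to an Agilent mouse miRNA array. All 6 samples carry the same strain, sex and tissue in the labels, and the groups differ there by treatment alone. The sources used here give no dose, duration of treatment or age. The labels do not tie samples to single animals. The p-values therefore rest on how these samples scatter, which may be technical.

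An miRNA is cut from a hairpin-shaped precursor, and either strand of the stem, named 5p or 3p, can be loaded into an Argonaute protein. Bases 2 to 8, the seed, pair with target messengers, so miRNAs that share a seed can share targets. miR-30 is abundant in heart muscle. It is known for repressing Ctgf, the connective tissue growth factor that promotes matrix deposition, and its level in the heart is known to fall in hypertrophy and failure.

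RefSeq's miRNA table (build GRCm38.p6) held 6 of the 10 members, and their mature sequences fall into 3 seed groups. They are printed 5′ to 3′ with the seed in capitals, because the seed separates the printed 5p arms, which can share targets, from the 3p arms.
miR-30a-5p: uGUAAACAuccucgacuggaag
miR-30c-5p: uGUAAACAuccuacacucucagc
miR-30e-5p: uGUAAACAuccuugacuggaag
miR-30a-3p: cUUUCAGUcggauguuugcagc
miR-30e-3p: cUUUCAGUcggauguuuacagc
miR-30c-1-3p: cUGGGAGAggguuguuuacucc
The 3 printed 5p arms had the same first 12 bases, and miR-30a-5p differed from miR-30e-5p at 1 position only, C13U, counted from the 5′ end with miR-30a-5p first. miR-30a-3p differed from miR-30e-3p at 1 position, G18A, counted likewise. The arms of 1 hairpin thus carry different seeds, whereas arms from different chromosomes can carry the same one.

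miR-384-5p was the other miRNA of the table with the 5p seed, and it was well above background on 0 of 6 arrays (the scanner software's call, which here asks for 13 times the background SD). miR-30c-2-3p, the 3p arm of the second miR-30c hairpin, shared the seed of miR-30c-1-3p and was well above background on all 6 arrays. miR-30f, whose seed is shifted by 1 base against that of the 5p arms, was above background on 0 of 6.

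The probes of miR-30a map to chromosome 1 (mm9), from 23279119 to 23279134 for the 5p arm and from 23279160 to 23279175 for the 3p arm. miR-30c-5p is made from 2 hairpins, and its probe maps both to chromosome 1, 23298558 to 23298575, and to chromosome 4, 120442160 to 120442177 (mm9). The probe of miR-30c-1-3p lies beside the latter, at 120442198 to 120442215. miR-30e follows on the same chromosome, from 120445233 to 120445248 for the 5p arm and from 120445274 to 120445290 for the 3p arm. Positions are those of the array annotation, printed with the lower coordinate first. The annotation lists the spans on chromosome 4 from the higher coordinate to the lower. Apart from those of miR-30c-5p, the printed spans are a base shorter than the probe, so their ends are approximate. In RefSeq the hairpins of miR-30c-1 and miR-30e lie within Nfyc, the gene for a subunit of the transcription factor NF-Y. Those of miR-30a and miR-30c-2 lie within no other listed gene.

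A single slide held the 6 arrays, with 0 saturated member spots. Between 235 and 252 miRNAs were well above background on an array. The 5 cardiac muscle miRNAs used to check the tissue label, miR-1a-3p, miR-133a-3p, miR-133b-3p, miR-208a-3p and miR-499-5p, were well above background on all 6 arrays, while the liver miRNA miR-122-5p and the brain miRNAs miR-124-3p and miR-9-5p were so on none. The 3 control arrays and sunitinib replicate 3 shared a row of the slide, and sunitinib replicates 1 and 2 lay in the other row. Values below are log2 signal after each array was scaled to the 75th percentile of the probes detected on all arrays, from the brightest probe of each miRNA. Levels of different miRNAs are not compared, since probes differ in efficiency.

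Of the 10 members, 9 were well above background on all 6 arrays and entered the test. miR-30d-3p was well above background on 0 of 6 arrays, and was not tested. Its control arrays read 3.46, 3.32 and 3.48, and its sunitinib arrays 3.56, 3.47 and 3.48. Of the 9, 0 passed an adjusted p of 0.05 in limma, in either direction. Over all 237 tested miRNAs 3.38% passed, 1.69% as higher and 1.69% as lower. At an unadjusted limma p under 0.05 there were 4 members, all higher in sunitinib, where 10.5% of all tested miRNAs were higher and 8.44% lower. In 7 of the 9 every sunitinib array read above every control array, an ordering seen in 18.1% of all tested miRNAs. The reverse ordering occurred in 9.28% of tested miRNAs and in 0 of the 9 members. The median difference over the 9 members, sunitinib minus control on the log2 scale, was 0.15, or 1.11-fold, against 0.02 over all tested miRNAs. The ordering depended on the scaling of the arrays. It held for 7 of 9 members with the median of detected probes (19% of all tested miRNAs) and for 3 with quantile normalization (13.5%). It held for 2 with the percentile over all probes (12.2%) and for 0 with no scaling (6.33%). In bulk tissue, fewer cells of a type and less RNA per cell cannot be told apart.

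**Figure D1:**
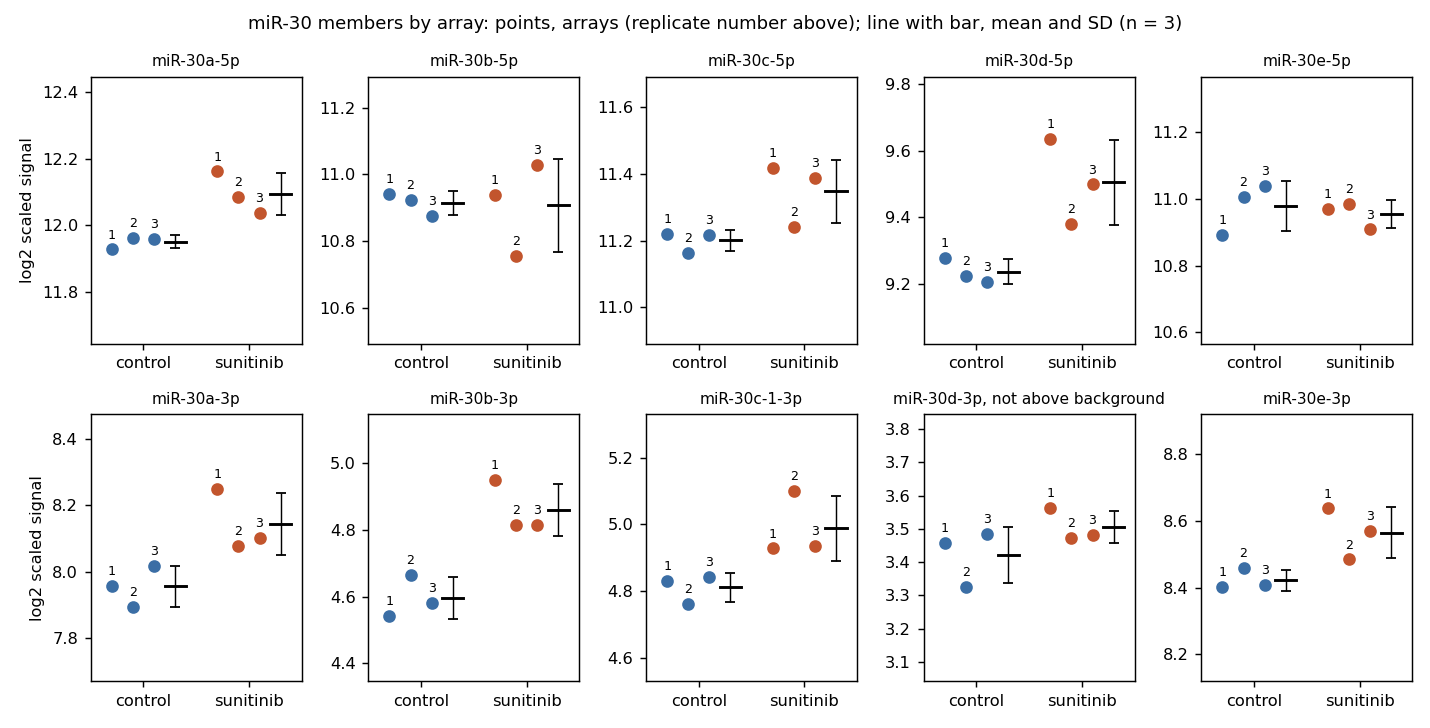
Log2 scaled signal (vertical axis, all panels with the same span) of the 10 miR-30 members on the 3 control and 3 sunitinib arrays; points are arrays, the short line with its bar is the mean and SD (n = 3). In 7 panels of tested members all sunitinib points lie above all control points, and miR-30b-5p and miR-30e-5p overlap.

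The 5p arms, which carry the shared seed of the family, did not all read alike. miR-30d-5p had the highest difference of the 5. The control arrays of mmu-miR-30d-5p read 9.28, 9.22 and 9.21 and the sunitinib arrays 9.63, 9.38 and 9.50, here and below in the order of the replicate numbers. The groups did not overlap, and sunitinib replicate 1 stood highest. The difference was 0.27 (SE 0.08, 95% interval 0.07 to 0.46, limma adjusted p = 0.15), or 1.2-fold, which placed it 18th of 237 from the top. With sunitinib replicate 2 left out it was 0.36 and passed (limma adjusted p = 0.047). Over all tested miRNAs the higher calls then numbered 12 of 242, in place of 4 of 237.

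mmu-miR-30a-5p read 11.93, 11.96 and 11.96 in control and 12.16, 12.08 and 12.04 in sunitinib. The control arrays lay close together, and each sunitinib array was above them. The difference was 0.14 (SE 0.06, 95% interval -0.0028 to 0.29, limma adjusted p = 0.26), but it was 0.00054 with quantile normalization. miR-30c-5p, the product of 2 hairpins, read 11.22, 11.16 and 11.22 in control and 11.42, 11.24 and 11.39 in sunitinib. The groups lay close, with sunitinib replicate 2 only just above the highest control array. The difference was 0.15 (SE 0.07, 95% interval -0.02 to 0.32, limma adjusted p = 0.30). It was 0.23 without sunitinib replicate 2 and 0.09 with the mean of both probes.

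In miR-30b-5p and miR-30e-5p the groups overlapped. miR-30b-5p read 10.94, 10.92 and 10.87 in control and 10.94, 10.75 and 11.03 in sunitinib. Its sunitinib arrays held both the lowest and the highest of the 6 values. The difference was -0.0062 (SE 0.08, 95% interval -0.21 to 0.20, limma adjusted p = 0.97). miR-30e-5p read 10.89, 11.01 and 11.04 in control and 10.97, 10.99 and 10.91 in sunitinib, so all 3 sunitinib arrays fell inside the control range. The difference was -0.02 (SE 0.07, 95% interval -0.18 to 0.14, limma adjusted p = 0.88). The intervals leave room for differences of either sign, so these values do not show that the 2 arms were equal in both groups.

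All 4 tested 3p arms read higher on every sunitinib array than on any control array, as did 18.1% of all tested miRNAs. The ordering depended on the scaling, and with no scaling 0 of the 9 tested members showed it (6.33% of all tested miRNAs). The 3p arms carry other seeds than the 5p arms. miR-30b-3p had the highest difference among the 4. mmu-miR-30b-3p read 4.54, 4.67 and 4.58 in control and 4.95, 4.82 and 4.82 in sunitinib, with sunitinib replicate 1 highest and the other two together. The difference was 0.26 (SE 0.07, 95% interval 0.10 to 0.43, limma adjusted p = 0.11), or 1.2-fold. With normexp background correction, which starts from the spots' mean signal and adds 50 to every signal, it was 0.10. The cause of that shift was not tested.

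miR-30a-3p read 7.96, 7.90 and 8.02 in control and 8.25, 8.08 and 8.10 in sunitinib. Again sunitinib replicate 1 was highest, and the gap between the groups was narrower than the spread of the sunitinib arrays. The difference was 0.19 (SE 0.07, 95% interval 0.0084 to 0.36, limma adjusted p = 0.25). miR-30e-3p read 8.40, 8.46 and 8.41 in control and 8.64, 8.48 and 8.57 in sunitinib, where replicate 2 stood just above the highest control. The difference was 0.14 (SE 0.06, 95% interval -0.02 to 0.30, limma adjusted p = 0.30).

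miR-30c-1-3p read 4.83, 4.76 and 4.84 in control and 4.93, 5.10 and 4.94 in sunitinib. Here sunitinib replicate 2 was the highest array, unlike in the other 3p arms. The difference was 0.18 (SE 0.07, 95% interval 0.0031 to 0.35, limma adjusted p = 0.25). It turned to -0.02 with the mean of all probes, of which 3 of 4 were well above background on no array. The non-member miR-30c-2-3p, with the same seed, read 5.65, 5.77 and 5.68 in control and 5.86, 5.91 and 5.79 in sunitinib, again without overlap. Its difference was 0.15 (SE 0.07, limma adjusted p = 0.27).

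**Figure D2:**
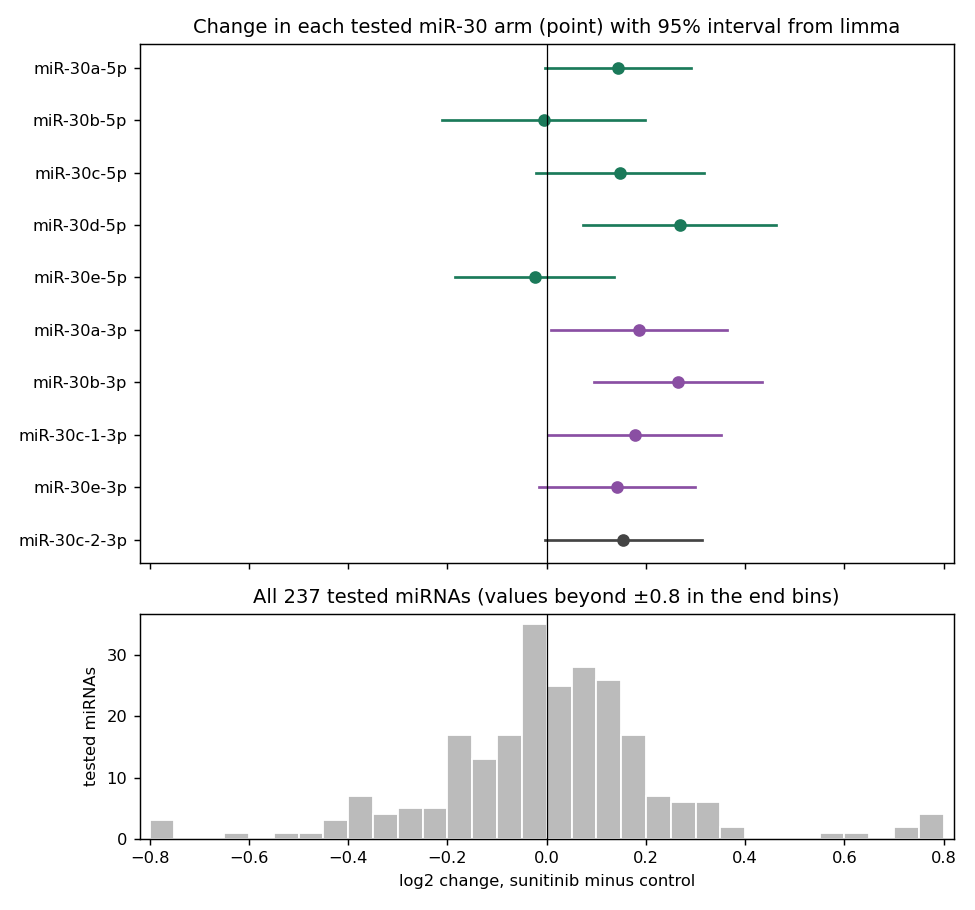
Top, log2 difference (sunitinib minus control) of each tested miR-30 arm, with its 95% interval from limma, 5p arms in green, 3p arms in purple and miR-30c-2-3p in grey; bottom, the same quantity for all 237 tested miRNAs. Points range from -0.02 to 0.27, and the intervals of miR-30d-5p, miR-30a-3p, miR-30b-3p and miR-30c-1-3p lie above 0 before adjustment for multiple testing.

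Because both arms come from the same precursor, the difference was also taken between arms. For each array the log2 value of the 3p arm was subtracted from that of the 5p arm, which cancels the probes' own brightness between groups. For miR-30b the 5p arm's difference was 0.27 below the 3p arm's (-0.27), with SDs of 0.07 in control and 0.15 in sunitinib (n = 3 each), and all sunitinib arrays lay below all control arrays. Its exact two-sided permutation p was 0.1, the smallest that 3 against 3 samples allow (0.4 after Benjamini-Hochberg adjustment over 4 hairpins). For miR-30e the value was -0.17 (exact permutation p = 0.2, adjusted 0.4). For miR-30a it was -0.04 (exact permutation p = 0.5, adjusted 0.67) and for miR-30c-5p against miR-30c-1-3p -0.03 (exact permutation p = 1, adjusted 1). With 3 samples a group no hairpin could reach a p of 0.05, so these tests cannot separate the arms. The sign was negative in all 4, and stayed so for miR-30a, miR-30b and miR-30e in each of the 9 alternatives, while miR-30c ran from -0.09 to 0.08 over 8. Those alternatives were the second brightest probe, normexp background correction, the authors' deposited values and leaving out each array. Arm differences were not taken under the other settings. With the mean of all probes, for example, miR-30c-5p was at 0.09 and miR-30c-1-3p at -0.02, the opposite order to the main setting.

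**Figure D3:**
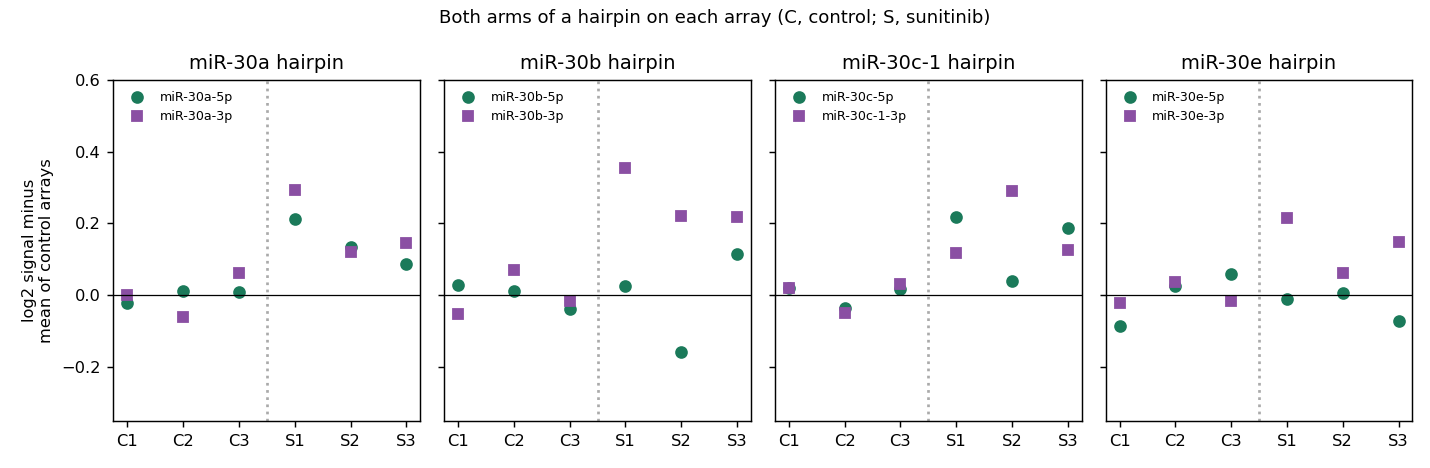
Log2 signal of the 5p arm (green circles) and 3p arm (purple squares) of 4 hairpins on each control (C1 to C3) and sunitinib array (S1 to S3), relative to the mean of that arm's control arrays. In miR-30b the 3p arm lies above the 5p arm on all sunitinib arrays, and in miR-30a the arms lie close together.

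Each member was read by 2 to 4 probes of different length, with 7 to 15 spots per probe on an array, and these give a check on the brightest probe within the same samples. For 8 members a second probe was also detected on every array, and in all 8 the detected probes of a member pointed one way. The 2 probes of miR-30d-5p gave 0.26 and 0.27, the 2 of miR-30a-3p 0.21 and 0.19, and the 2 brightest of miR-30b-3p 0.28 and 0.26. The 18-base and 19-base probes of miR-30b-3p, above background on 0 and 4 arrays, gave 0.04 and 0.12. Agreement was looser for miR-30c-5p (0.04 for its shorter and 0.15 for its longer probe) and miR-30b-5p (-0.12 and -0.0062). The 3 probes of miR-30a-5p, of 15, 16 and 17 bases, gave 0.08, 0.10 and 0.14. Probes of 1 miRNA share the RNA, the array and most of their sequence, so they are not replicates of the treatment.

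**Figure D4:**
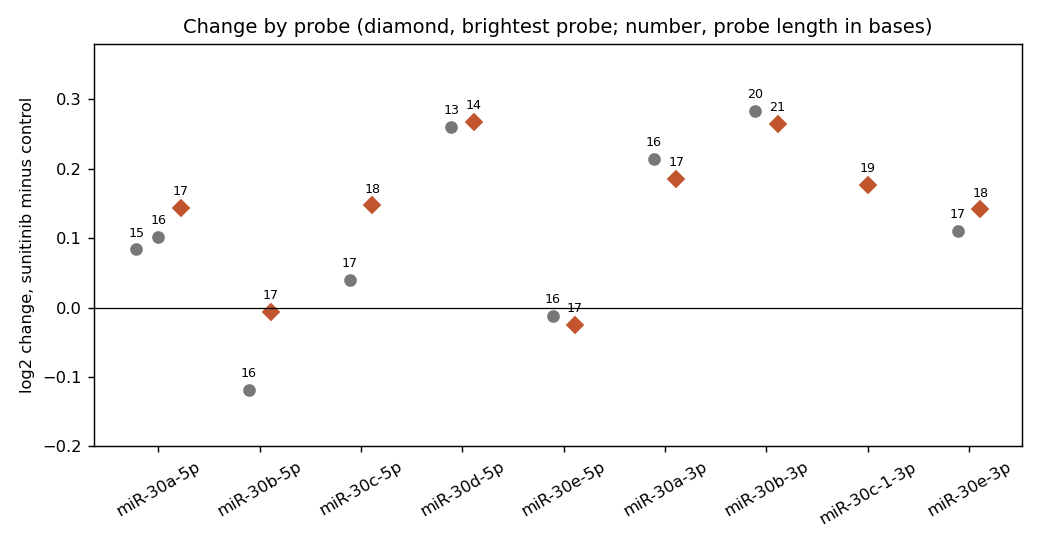
Log2 difference (sunitinib minus control) for each probe that was well above background on all 6 arrays, by member; diamonds are the brightest probes and numbers give probe length in bases. The probes of miR-30d-5p lie at 0.26 and 0.27, while those of miR-30c-5p spread from 0.04 to 0.15.

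The near-identity of some members bears on how separately they were read. The brightest probes of miR-30a-5p and miR-30e-5p are both 17 bases long, cover bases 6 to 22 of the miRNA and differ in 1 base, printed in capitals (5′ to 3′, G10A counted from the probe's 5′ end with the miR-30a-5p probe first).
miR-30a-5p probe: cttccagtcGaggatgt
miR-30e-5p probe: cttccagtcAaggatgt
These probes gave 0.14 and -0.02 on the same arrays. The probes of miR-30d-5p, of 13 and 14 bases, had 1 mismatch to miR-30a-5p, and those of miR-30a-3p and miR-30e-3p had 1 mismatch to each other's target. Probes of miR-30b-5p had 4 mismatches to miR-30c-5p, the closest other sequence compared, and those of miR-30c-1-3p 3 to miR-30c-2-3p. How much one member's RNA binds another's probe was not tested. None of the brightest probes of the printed members covered the whole seed.

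The sunitinib arrays differed from each other in a pattern common to several members. Sunitinib replicate 1 was the highest of the 6 arrays for miR-30a-5p, miR-30c-5p, miR-30d-5p, miR-30a-3p, miR-30b-3p and miR-30e-3p. Averaged over the 5 tested 5p arms and centred on each arm's mean, the arrays read -0.06, -0.05 and -0.05 on the control side and 0.12, -0.02 and 0.06 under sunitinib. Over the 4 tested 3p arms they read -0.11, -0.10 and -0.08 in control and 0.15, 0.08 and 0.06 in sunitinib. All control arrays lay below all sunitinib arrays in both averages, an ordering seen in 18.1% of all tested miRNAs taken singly. The averages were not taken under other scalings. With no scaling, 0 of the 9 tested members had that ordering (6.33% of all tested miRNAs). The non-member miRNAs whose values followed the 5p average most closely over the 6 arrays were miR-322-5p (Pearson r = 0.99), miR-26a-5p (r = 0.95), miR-99a-5p (r = 0.94), miR-29a-3p (r = 0.94) and miR-148a-3p (r = 0.94). Their log2 differences were 0.18, 0.19, 0.09, 0.26 and 0.07, and none passed. These correlations describe 6 arrays that share their labelling, scaling and slide, and were picked as the highest of all tested non-members. Among the members themselves, miR-30e-3p, miR-30d-5p and miR-30c-5p tracked the average with r of 0.97 each. The r was 0.91 for miR-30a-3p, 0.88 for miR-30b-3p and 0.85 for miR-30a-5p. It was low for miR-30b-5p (0.39) and miR-30c-1-3p (0.37), and miR-30e-5p did not track the average (r = -0.25). The 5p arms are themselves part of that average, so their r is raised by construction.

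The slide row moved with treatment, so it was also held fixed. Within the shared row, where sunitinib replicate 3 faces the 3 control arrays, the difference was 0.26 for miR-30d-5p, 0.22 for miR-30b-3p, 0.19 for miR-30c-5p and 0.15 for miR-30e-3p. It was 0.14 for miR-30a-3p, 0.13 for miR-30c-1-3p, 0.12 for miR-30b-5p, 0.09 for miR-30a-5p and -0.07 for miR-30e-5p. Under the main scaling, that array was above every control array for 8 of the 9 members and for 38.4% of all tested miRNAs. This count was not taken under other scalings. The median over the members was 0.14, against 0.02 over all tested miRNAs, with no test since 1 array stands for sunitinib.

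Other miRNAs of the same setting were described from lists chosen for their known roles. The miR-29 family, which represses collagen messengers, had 5 of 7 listed members tested, and 0 passed in limma. The 4 that were well above background on all 6 arrays had differences of 0.12 to 0.26. miR-29b-1-5p, at 0.74 (limma adjusted p = 0.086), was so on only 5 of 6 arrays. It thus entered the test through 1 group alone, and its difference is not counted with the others. Of 5 miRNAs known, like miR-30, to target Ctgf, 4 were tested and 0 passed. They were miR-133a-3p at 0.11, miR-133b-3p at 0.07, miR-19a-3p at -0.10 and miR-19b-3p at -0.0020.

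Markers of the cell types in the tissue stood as follows. The 5 cardiac muscle miRNAs had differences from -0.01 to 0.11 (median 0.06), and the 2 endothelial miRNAs -0.18 and -0.02. The 2 mural cell miRNAs had -0.23 and -0.07, and 4 erythroid miRNAs ranged from -0.10 to 0.32 (median 0.07). Of 4 tested leukocyte miRNAs, 2 fell in sunitinib, miR-223-3p by 1.32 (limma adjusted p = 0.00086) and miR-142a-3p by 0.64 (limma adjusted p = 0.02). The other two had differences above 0 that did not pass, 0.35 for miR-150-5p (limma adjusted p = 0.36) and 0.15 for miR-155-5p (limma adjusted p = 0.25). The summed signal of the 4, as log2, ran from 9.30 to 9.45 in control and from 8.72 to 8.96 in sunitinib. Such a sum weights each miRNA by the brightness of its probe, so it does not stand for all 4 alike. In control miR-223-3p was the brightest, with a mean of 8.32, and the others had means of 6.62 to 6.92. For the cardiac muscle miRNAs it reached from 16.90 to 17.05 in control and up to 17.08 in sunitinib. When the arrays were scaled to equal means of the 5 cardiac muscle miRNAs, an alternative chosen after the data were seen, the median over the miR-30 members was 0.10 (-0.03 over all tested miRNAs), and 1 of the 9 had all sunitinib arrays above all control arrays, against 8.86% of all tested miRNAs. The part of cell composition in the miR-30 values was not tested.

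The values processed by the authors were compared in the same way. In the authors' deposited table, miR-30d-5p read 9.11, 9.09 and 9.14 in control and 9.45, 9.29 and 9.35 in sunitinib, a difference of 0.25 (limma adjusted p = 0.076). miR-30b-3p differed there by 0.21, miR-30a-3p by 0.18, and the other 6 tested members from -0.04 to 0.08. On those deposited values, 5 of the 9 members had all sunitinib arrays above all control arrays, against 13.9% of all tested miRNAs, and their median was 0.08, against -0.01 over all tested. The lower values there included miR-30a-5p at 0.08, miR-30c-5p at 0.07, miR-30e-3p at 0.08 and miR-30c-1-3p at 0.07.

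**Figure D5:**
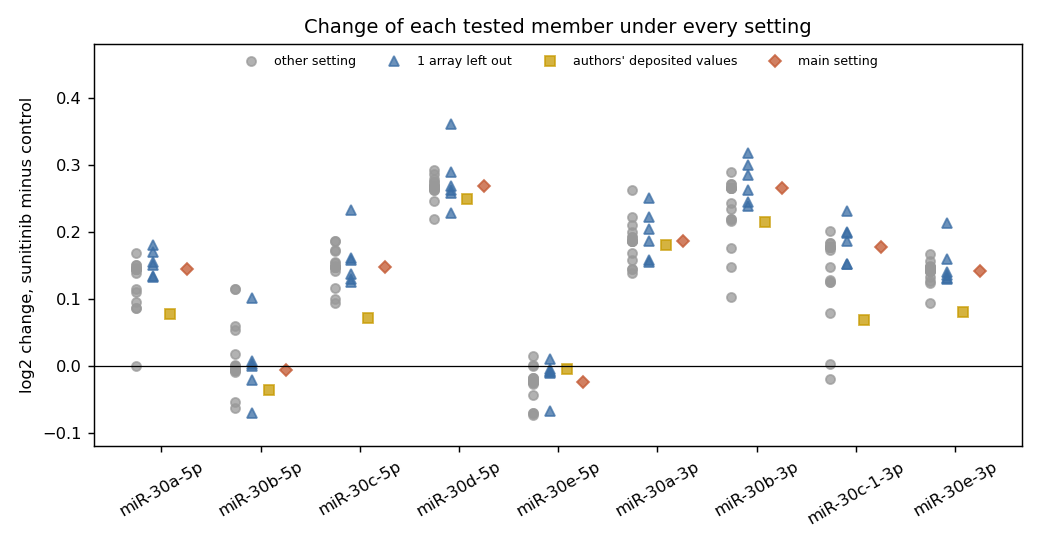
Log2 difference (sunitinib minus control) of each tested member under the main setting (diamonds), in the authors' deposited values (squares), with 1 array left out (triangles) and under the other settings (circles). miR-30a-5p, miR-30c-5p, miR-30d-5p, miR-30a-3p, miR-30b-3p and miR-30e-3p lie above 0 throughout, miR-30c-1-3p does so but for -0.02 with the mean of all probes, and miR-30b-5p and miR-30e-5p lie on both sides of 0.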

How the data were processed

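The labels' titles gave the groups and replicate numbers. The deposited scanner files hold spot intensity on a linear scale, background-subtracted by Agilent Feature Extraction 10.7.1.1 (build mm9), per the file headers; the submitters' processing notes name version 10.7. The deposited value table holds the authors' log2 values, with no scale or centring stated; its column medians over miRNAs ran from 2.19 to 2.20, and it served as an alternative. Control spots and outlier spots were left out. Processed signal was scaled to the 75th percentile over the 393 probes detected on every array, floored at 1 and averaged as log2 over a probe's spots. A probe counted as above background where 50% of its spots did, and the brightest probe stood for its miRNA. miRNAs above background throughout at least 1 group (237) were tested with limma 3.58.1 (lmFit, eBayes, R 4.3.3), with Benjamini-Hochberg adjustment over all of them at 0.05; the fit was tested on simulated data. Precision is limited by 6 arrays. The members and lists were chosen with earlier results of these data known. All 10 members were described, with seed relatives, the 5 best-correlated non-members and the listed miRNAs. Alternatives changed the scaling, background correction, summary over probes, detection filter, floor, variance model and weights, added blocks or left out each array.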

Additional observations from a re-analysis of the deposited data

How the results depend on the processing

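The cause of each shift below was not tested. With limma, 0 of the 9 members passed as higher and 0 as lower under 21 and 22 of 22 alternatives; leaving out sunitinib replicate 2 gave 1 higher (miR-30d-5p, 0.36), while higher calls over all tested miRNAs went from 4 of 237 to 12 of 242, so leaving out an array gave 0 to 1 higher and 0 lower. The members' median (0.15) stayed above 0 in all 23 alternatives but was 0.0779 in the authors' deposited table, 0.10 when scaled to cardiac muscle miRNAs and 0.14 to 0.21 without an array. The count of 7 members with all sunitinib arrays above all control arrays (18.1% of all tested miRNAs) moved with the setting. It became 4 after normexp (11.8%), 2 when all probes set the percentile (12.2%), 3 with quantile normalization (13.5%) and 0 with no scaling (6.33%). It was 4 with the summed signal (17.7%), 5 with the mean of all probes (12.7%) and 5 in the deposited table (13.9%). Scaling to cardiac muscle miRNAs gave 1 (8.86%). Without an array it was 6 to 7, but the share over all tested miRNAs was then higher, 20.3% to 33.8%. This count and the cardiac scaling were chosen after the data were seen. With the replicate number as a block 0 members passed and the median was 0.15. Over all tested miRNAs the block gave 0 higher and 2 lower calls in place of 4 and 4. Samples of the same number had correlations of deviations of 0.18, 0.22 and -0.06, which cannot settle whether the numbers pair the samples. miR-30b-5p turned positive with the percentile over all probes (0.0185), the median of detected probes (0.00054), quantile normalization (0.054), no scaling (5.8e-06), the summed signal (0.0013), array weights (0.0594), the slide row as a block (0.12) and within the row (0.12), and ran from -0.0699 to 0.101 without an array. miR-30e-5p turned positive with the percentile over all probes (0.00034), quantile normalization (0.0145) and the summed signal (0.0021), and ran from -0.0673 to 0.011 without an array. miR-30c-1-3p was -0.019 with the mean of all probes. The arm difference of miR-30a (-0.04) was -0.11 with the second brightest probes and -0.10 in the deposited table, and that of miR-30b (-0.27) was -0.40 and, with normexp, -0.11; without an array they ran from -0.07 to -0.0051 and from -0.35 to -0.22. No second probe of miR-30c-1-3p was above background, so that alternative was not run for miR-30c. Signal over background limits miR-30d-3p, which had no array above it, and miR-30c-1-3p, which rests on 1 probe.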
